A study of Mus musculus with 4 samples.

Results

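The prostaglandin synthases and receptors examined here were 10 genes, chosen by name: the cyclooxygenases Ptgs1 and Ptgs2, the terminal synthases Ptges, Ptges2, Ptgds and Ptgis, and the prostaglandin E2 receptors Ptger1, Ptger2, Ptger3 and Ptger4. All 10 were on the array, with 14 probes in all, out of 28146 gene names on it. They were measured in a pair of stable lines of EPH-4, a non-malignant mouse mammary epithelial cell line. EV-50 carried the empty vector H1-2, and shGR-19 carried an shRNA vector against the glucocorticoid receptor (GR, encoded by Nr3c1). Both lines had been transfected together with the puromycin marker pBABE-puro, selected as colonies, and kept in medium without serum and with 2 µg/mL puromycin. Each line was grown from 1 colony, so a difference between the lines may also be one between colonies, and parental cells were not analysed here. RNA from each line was labelled with Cy3 in duplicate, 300 ng for each array, and put on whole-genome mouse arrays made by Agilent, which gave 2 arrays for EV-50 and 2 for shGR-19. The sources used here do not say whether the duplicates came from separate cultures, so the p-values measure only the spread between these arrays, which may be technical. The comparison asks which genes change in mammary cells that lack normal amounts of GR while no glucocorticoid is added.

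Prostaglandins are lipid signals made from arachidonic acid that phospholipases release from membranes. The cyclooxygenases turn it into prostaglandin H2, which terminal synthases convert to prostaglandin E2, prostaglandin D2, prostacyclin and others, and each product acts on G protein-coupled receptors of its own. Ptgs1 is made steadily in many tissues, whereas Ptgs2 is induced by growth factors and cytokines, is held down by glucocorticoids through GR in many cell types, and is often raised in breast tumours.

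The data were available as the scanner output of each array and as a value table that the authors deposited for the same samples. Scanner values are given as log2 intensity minus the 75th percentile of all probes on that array. In the value table, each probe is centred on its own median over the 4 columns. The sources differed, which bears on every result below. Over 10267 brighter probes, the SD of the log2 difference was 0.0801 between replicate 1 of EV-50 and replicate 1 of shGR-19 as labelled on the scanner files, less than in any other pair of these arrays (0.446 to 0.621). In the value table the duplicates of a line differed with SDs of 0.0854 and 0.0961, and columns of different lines with SDs of 0.443 to 0.452. For Nr3c1, the targeted gene, the brightest probe read 1.81 and 1.92 on the EV-50-labelled scanner arrays (replicate 1, then replicate 2, here and below) and 1.46 and -0.034 on the shGR-19-labelled ones. Its log2 difference in the table was -1.94. Across the same probes, which are not independent replicates, the log2 difference in the table had a Pearson correlation of 0.121 with that of the replicate 1 scanner pair and of 0.959 with that of the replicate 2 pair. Whether the scanner files come from the arrays behind the table is not known. The cause of the disagreement was not tested, and each result is given from both sources, with the scanner arrays named as labelled. Of 10 epithelial markers, 9 were well above background on all 4 scanner arrays, with a summed intensity of 456457 to 537741. The immune markers Ptprc, Emr1 and Itgam and the endothelial markers Pecam1 and Cdh5 were on none.

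Of the 14 probes, 7 were tested, since both arrays of 1 line or of both lines read them well above background. They read 6 genes: Ptgs1, Ptgs2 (by 2 probes), Ptges, Ptges2, Ptgds and Ptger1. In EPH-4 cells the signal thus lay on both cyclooxygenases, the prostaglandin E2 and D2 synthases and 1 receptor. The probe of Ptgis, and those of Ptger2, Ptger3 and Ptger4, did not meet this condition in either line. In a bulk sample, fewer cells that make an RNA and less of it per cell cannot be told apart.

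**Figure D1:**
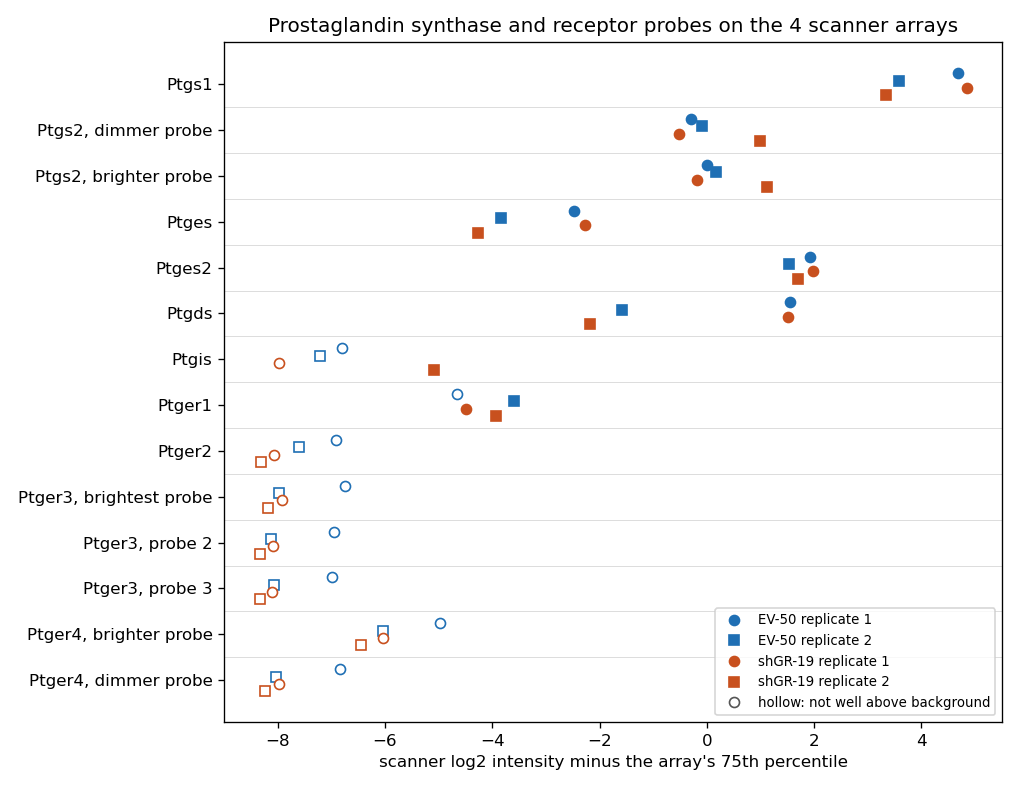
Each row is 1 of the 14 probes and each mark 1 of the 4 scanner arrays. The horizontal axis is log2 intensity minus the 75th percentile of the array, filled marks are well above background and hollow marks are not. Levels cannot be compared between probes. For Ptgs1, Ptges and Ptgds the arrays labelled replicate 1 (circles) lie to the right of those labelled replicate 2 (squares), whereas both Ptgs2 probes are highest on the array labelled shGR-19 replicate 2.

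Ptgs2, the inducible cyclooxygenase (COX-2), was higher in shGR-19 in the value table and was called there by both of its probes. Both probes lie on the plus strand of chromosome 1 of mm9, which is the build used in the array files. The brighter covers 151954416 to 151954475 and begins at base 3418 of the transcript, and the dimmer covers 151954744 to 151954803 and begins at base 3746. They match different stretches of the same RNA, and the first 30 bases of each are shown because the call on Ptgs2 rests on them.
Ptgs2 brighter probe: ctgaagaattgctttcttacttaaaaacaa
Ptgs2 dimmer probe: tttttgaaaagtttgaagttagaacttagg

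The brighter Ptgs2 probe was -0.55 and -0.59 in the EV-50 columns and 0.55 and 0.59 in the shGR-19 columns of the value table. The lines did not overlap, and the gap between them was larger than that between duplicates. The log2 difference was 1.14 (standard error 0.049, 95% interval 1.00 to 1.29), a 2.21-fold increase (adjusted p = 0.00332, limma). The dimmer probe was -0.62 and -0.60 in EV-50 and 0.60 and 0.62 in shGR-19, a log2 difference of 1.22 (standard error 0.046, adjusted p = 0.00290, limma). Both calls were lost when all probes of the array were tested (adjusted p = 0.0148 and 0.0141), and that of the brighter probe when any 1 column was left out (adjusted p = 0.0360 to 0.0373).

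The scanner arrays did not give this difference in both pairs. The brighter Ptgs2 probe read 0.0081 and 0.17 on the EV-50-labelled arrays, and -0.19 and 1.11 on the shGR-19-labelled ones. Thus 1 of the shGR-19-labelled arrays was the highest of the 4 and the other was the lowest. In the replicate 1 pair (shGR-19 minus EV-50) the difference was -0.20, and in the replicate 2 pair it was 0.94, or 1.92-fold. Over all 4 arrays the log2 difference was 0.37 (standard error 0.49, 95% interval -0.95 to 1.69, adjusted p = 1.00, limma), and it turned to -0.28 once shGR-19 replicate 2 was left out.

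The dimmer Ptgs2 probe was printed at many places on the array, which gives its reading error within an array. It read -0.29 ± 0.023 and -0.092 ± 0.045 on the EV-50-labelled arrays (SD over 10 spots each). On the shGR-19-labelled arrays it read -0.52 ± 0.022 (10 spots) and 0.99 ± 0.057 (9 spots, 1 outlier left out). The spots of replicate 2 of shGR-19 lay apart from all others: the lowest spot on the array labelled shGR-19 replicate 2 was at 0.88 and the highest on any other array at -0.033. The order of the arrays was the same as with the brighter probe, and spots of 1 array are not replicates of a line. In the replicate 2 pair the difference was 1.08, past 2-fold, as 1 of the 7 tested probes (2.37% of all tested probes were over 2-fold higher in that pair).

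**Figure D2:**
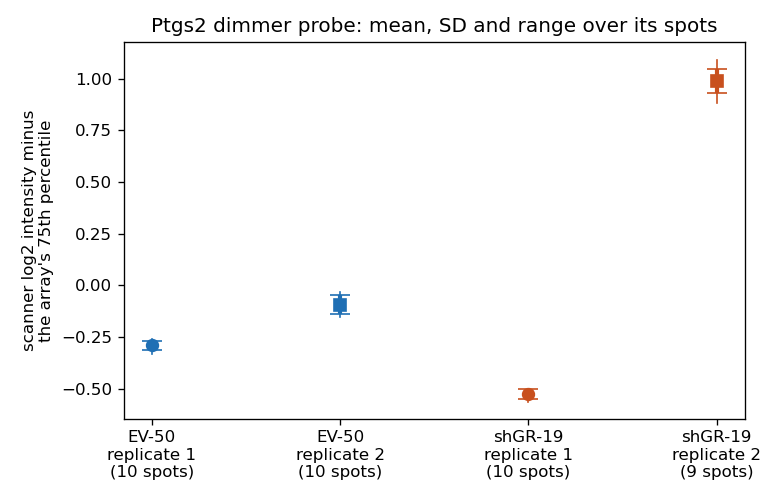
Points are the mean scanner log2 intensity of the dimmer Ptgs2 probe on each array, scaled as above, the capped bars are the SD over its spots and the thin lines the range. The array labelled shGR-19 replicate 2 stands at 0.99, and that labelled shGR-19 replicate 1, at -0.52, is the lowest of the 4.

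Markers of mesenchymal cells and fibroblasts, in which Ptgs2 is also known to be made, were highest as a sum on the same array. Of 9 such markers, 2 (Col1a2 and Pdgfrb) were well above background on all 4 scanner arrays, and Cdh2 and Dcn on none. Their summed intensity was 1073 and 3828 on the EV-50-labelled arrays and 977 and 28813 on the shGR-19-labelled ones. The array highest in Ptgs2 was thus also the highest in this sum, in which the brightest genes weigh most. Being highest on that array was shared with other lists, by smaller margins. The immune sum was 471 there against 369 to 410 on the other arrays, and the endothelial sum 54.5 against 38.5 to 48.2. The epithelial and adipocyte sums were lowest there, at 456457 against 503886 to 537741 and at 119 against 121 to 173. The part of any of these markers in the Ptgs2 value was not tested.

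The genes whose tested probes came closest to Ptgs2 over the 4 scanner arrays, each probe centred on its own mean, were Rcn2, an endoplasmic reticulum calcium-binding protein, and Spsb1, an adaptor of ubiquitin ligases, at Euclidean distances of 0.036 and 0.060 in log2 units. The next was a transcript with no gene symbol in the files, at 0.068. The dimmer Ptgs2 probe lay at 0.155, with 22 of 24435 probes nearer. Rcn2 read 1.72 and 1.89 on the EV-50-labelled arrays and 1.56 and 2.86 on the shGR-19-labelled ones. With 4 arrays this likeness is a description of which arrays were high.

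Ptgs1 (COX-1), the steadily made cyclooxygenase, gave a strong signal on every array. Its probe lies on the plus strand of chromosome 2 of mm9 from 36107644 to 36107703 and begins at base 2718 of the transcript, and its first bases were gagccacacttagactctttccaaagatgt. Ptgs1 read 4.69 and 3.59 on the EV-50-labelled scanner arrays and 4.84 and 3.34 on the shGR-19-labelled ones. Both arrays labelled replicate 1 were higher than both labelled replicate 2, by 2.14-fold within EV-50 and 2.83-fold within shGR-19. The log2 difference between the lines was -0.044 (standard error 0.66, 95% interval -1.82 to 1.73). The value table had Ptgs1 at 0.16 and 0.075 in EV-50 and -0.075 and -0.19 in shGR-19. The lines did not overlap, but the log2 difference of -0.25 (standard error 0.071, adjusted p = 0.0699, limma) was not called. The cyclooxygenases therefore differed in the sign of their values in the table, with a call for Ptgs2 alone, and the difference between these genes was not tested.

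Ptges, the inducible microsomal prostaglandin E synthase that commonly works with Ptgs2, fell in shGR-19 in the value table. Its probe lies on the minus strand of chromosome 2 of mm9 from 30747838 to 30747897 and begins at base 740 of the transcript, and its first bases were gccacttacagatgagctgtcaagatttga. The columns of the table held 0.33 and 0.47 in EV-50 and -0.33 and -0.35 in shGR-19. The duplicates of EV-50 lay 0.14 apart, and the lines did not overlap. The log2 difference was -0.75 (standard error 0.069, 95% interval -0.95 to -0.54), a 1.68-fold decrease (adjusted p = 0.00837, limma), which was lost when all probes were tested (adjusted p = 0.0295) or when any 1 column was left out (adjusted p = 0.0414 to 0.0587).

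On the scanner arrays Ptges read -2.48 and -3.84 under the label EV-50 and -2.27 and -4.27 under the label shGR-19. The arrays labelled replicate 1 were the highest in both lines, 2.57-fold above replicate 2 in EV-50 and 4.0-fold in shGR-19. The replicate 1 pair differed by 0.21 and the replicate 2 pair by -0.43. The log2 difference over all 4 arrays was -0.11 (standard error 0.84, adjusted p = 1.00, limma).

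Ptges2, a membrane-associated prostaglandin E synthase, varied least among the tested probes between the scanner arrays. It read 1.92 and 1.53 with the EV-50 labels and 1.97 and 1.70 with the shGR-19 labels, a log2 difference of 0.12 (standard error 0.26, 95% interval -0.58 to 0.81). The value table had it at -0.12 in both EV-50 columns and 0.20 and 0.12 in the shGR-19 columns. The lines did not overlap, and the log2 difference of 0.28 (standard error 0.054, adjusted p = 0.0317, limma) was not called. Its probe lies on the plus strand of chromosome 2 of mm9 from 32257968 to 32258027.

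Ptgds, the lipocalin-type prostaglandin D synthase, which also carries lipophilic molecules outside the cell, differed most between arrays of 1 line. Its probe lies on the minus strand of chromosome 2 of mm9, and its 60 bases span 532 bases of genome, from 25322842 to 25323373, so that it joins separate exons. Its first bases were tcacagaggaggacattgttttcctgcccc. Ptgds read 1.56 and -1.59 on the EV-50-labelled scanner arrays and 1.51 and -2.17 on the shGR-19-labelled ones. The arrays labelled replicate 1 were 8.86-fold above replicate 2 in EV-50 and 12.9-fold in shGR-19, while the arrays labelled replicate 1 of the different lines were 0.046 apart. The log2 difference between the lines was -0.31 (standard error 1.65, 95% interval -4.75 to 4.12). The table values of Ptgds were 0.30 and 0.22 in EV-50 and -0.22 and -0.27 in shGR-19, with no overlap. The log2 difference there was -0.51 (standard error 0.057, adjusted p = 0.0113, limma), just outside the threshold of 0.01.

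Ptger1, the receptor of prostaglandin E2 that raises intracellular calcium, was the only receptor of the 4 with a tested probe, on the plus strand of chromosome 8 of mm9 from 86193681 to 86193740. The probe read -4.66 and -3.60 with the EV-50 labels and -4.50 and -3.93 with the shGR-19 labels, and was not well above background on the array labelled EV-50 replicate 1. The log2 difference was -0.083 (standard error 0.46, 95% interval -1.31 to 1.14). The value table had it at -0.14 and 0.18 in EV-50 and 0.14 and -0.25 in shGR-19. The lines overlapped, and the log2 difference was -0.079 (standard error 0.19, adjusted p = 0.779, limma).

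Ptger2 and Ptger4, receptors that raise cyclic AMP, and Ptger3, which lowers it, were well above background on no array by any of their 6 probes. Their scanner values ran from -8.34 to -4.98, and all 6 were highest on the array labelled EV-50 replicate 1. That array read higher for undetected probes as a whole, with a median of -6.76 over 13476 of them against -8.12 to -7.85 on the other arrays. The brighter Ptger4 probe read -4.98 there, close below the lowest value that counted as well above background (-4.81). No fold is given for these receptors.

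Ptgis, the prostacyclin synthase, was well above background only on the scanner array labelled shGR-19 replicate 2, where it read -5.10. It read -6.80 and -7.21 under the EV-50 labels and -7.98 under shGR-19 replicate 1, so that 1 of the 4 arrays measured it. The table held -0.74 and -1.63 in EV-50 and 0.81 and 0.74 in shGR-19. The columns did not overlap and the duplicates of EV-50 lay 0.90 apart, but with the scanner signal near background in EV-50 no log2 difference or test is given. No bound on a fold above 1 could be set from the scanner arrays.

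**Figure D3:**
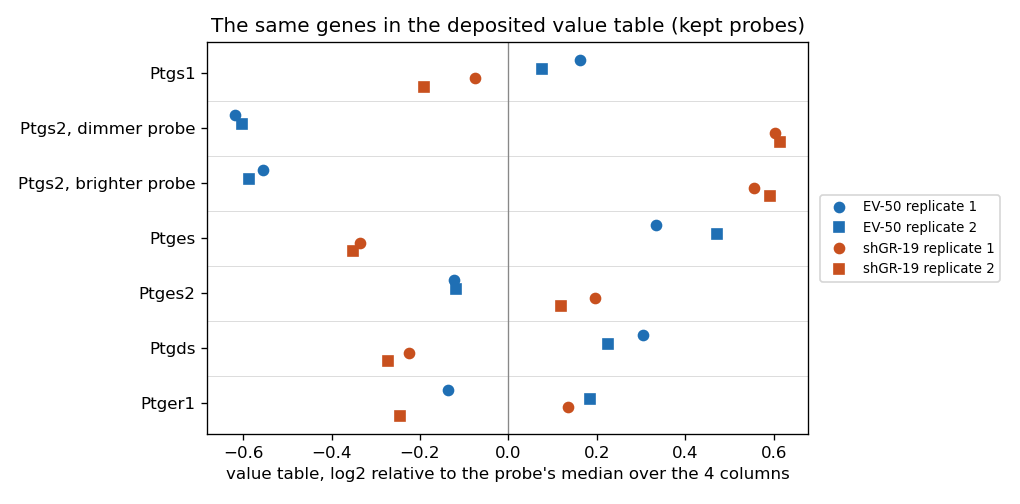
Each row is 1 of the 7 tested probes, each mark 1 column of the value table, and the horizontal axis is the log2 value as centred by the authors. Because of the centring, the middle pair of values lies evenly about 0. Both Ptgs2 probes lie near -0.6 in EV-50 and 0.6 in shGR-19, Ptges and Ptgds lie the other way, and Ptger1 overlaps.

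Counted together, the scanner arrays called none of the 7 tested probes (0 at an adjusted p below 0.01 by limma, as for 0% of the 24439 probes tested). At an unadjusted p below 0.05 limma passed 0 of the 7, against 0.855% of all tested probes. The lines overlapped for all 7, whereas 17.9% of all tested probes did not overlap. The standard errors of the log2 differences ran from 0.26 to 1.65, so a 2-fold difference in at least 1 direction lay within the 95% interval of every tested probe but that of Ptges2. In 4 of the 7 probes both arrays labelled replicate 1 were above both labelled replicate 2 (36.5% of all tested probes), and in the other 3 the order was the opposite (28.1%). Ptgs1, Ptges and Ptgds, 3 of the 7, were more than 2-fold higher on replicate 1 than on replicate 2 in both lines, which was so for 2.17% of all tested probes.

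In the value table, 3 of the 7 probes were called at an adjusted p below 0.01, against 11.6% of all tested probes. The 2 Ptgs2 probes were higher in shGR-19 (background 5.53%, or 1.87% with more than 2-fold), and the Ptges probe was lower (background 6.04%). These were 2 of 6 genes. The lines did not overlap for 6 of the 7 probes, but neither did they for 71.9% of all tested probes. The median log2 difference was -0.079 over the 7 probes and 0.0087 over all tested probes; from the scanner arrays these medians were -0.044 and 0.018.

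**Figure D4:**
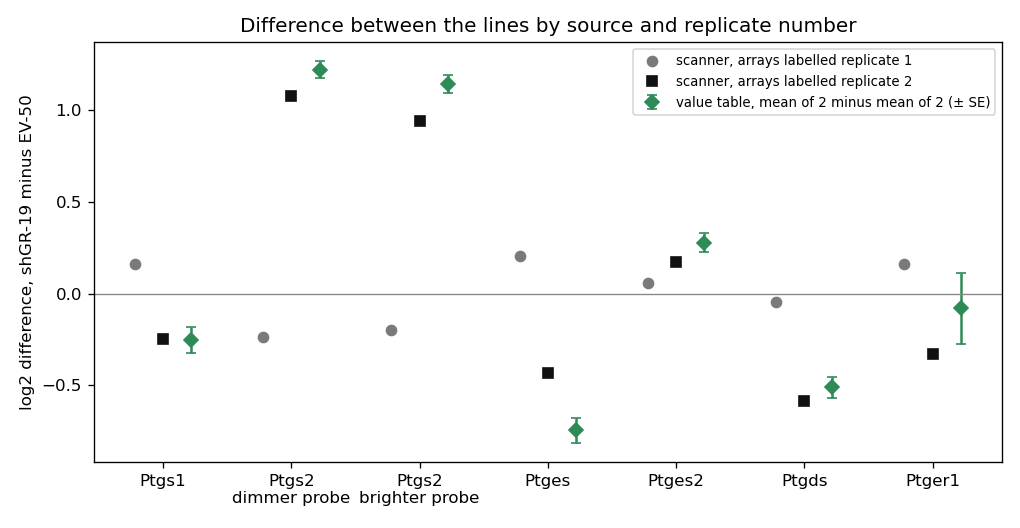
The vertical axis is the log2 difference of shGR-19 minus EV-50 for the 7 tested probes, between scanner arrays labelled replicate 1 (circles), between those labelled replicate 2 (squares) and in the value table (diamonds, with the standard error from limma). Ptgs2 lies at -0.24 and -0.20 in the first, and between 0.94 and 1.22 in the others.

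The proximal promoters of the genes called in opposite directions in the value table, Ptgs2 and Ptges, are printed because GR can act through DNA. They are the 250 bases before the transcription start in RefSeq's annotation of GRCm38.p6, a different build from that of the probes, and 8 of the 10 genes had an entry in the table used. The search covered both strands for the GR half-site AGAACA, the ETS core CCGGAA, the CRE half-site TGACG, the TATA box TATAAA, the C/EBP motif TTNNGCAA and the E-box CACGTG. The motifs do not overlap one another in the windows printed. Capitals mark matches.
Ptgs2, chr1:150099781-150100030, plus strand: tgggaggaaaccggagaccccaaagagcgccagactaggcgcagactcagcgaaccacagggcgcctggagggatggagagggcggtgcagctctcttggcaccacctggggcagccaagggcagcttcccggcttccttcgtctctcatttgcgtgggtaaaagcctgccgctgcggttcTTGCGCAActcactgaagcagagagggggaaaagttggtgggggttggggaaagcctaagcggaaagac
Ptges, chr2:30903298-30903547, minus strand: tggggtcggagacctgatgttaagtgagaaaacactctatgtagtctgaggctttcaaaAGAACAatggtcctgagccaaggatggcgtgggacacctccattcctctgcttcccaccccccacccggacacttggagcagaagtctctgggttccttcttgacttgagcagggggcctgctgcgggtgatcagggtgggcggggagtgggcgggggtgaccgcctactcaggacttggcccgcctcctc

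The Ptgs2 window held 1 match, a C/EBP motif at -69 to -62 from the start site that reads the same on both strands, a motif found in 9.56% of 32851 mouse promoters of this length. The letters of the GR half-site were not in it. The Ptges window held the GR half-site at -191 to -186, as did the windows of Ptgs1 (on the opposite strand, at -204 to -199) and Ptger2 (at -52 to -47). That half-site was in 16.1% of all promoters, and with so short a motif a match says nothing of binding. The Ptges2 window held an E-box at -77 to -72 (6.02% of promoters). The CRE half-site, the ETS core and the TATA box, which were in 17.8%, 12% and 12.4% of promoters, had no match in any of the 8 windows. Bases outside the windows, including those just past the annotated start, were not searched. The absence of a match here does not mean that a promoter lacks the motif.

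Other genes of the pathway were taken from a list of 47, of which 46 were on the array and 31 had a tested probe. From the scanner arrays 0 of the 31 were called. With the value table, 9 were called, 4 higher and 5 lower in shGR-19, which is 29.0% against 11.6% of all tested probes. The former counts each gene by its brightest tested probe and the latter every tested probe, so the shares are not in the same unit. The median log2 difference of the list was -0.013. Among the 8 tested phospholipases, which supply arachidonic acid, 3 were called. Pla2g4a, the cytosolic phospholipase that works ahead of the cyclooxygenases, was 0.63 higher (standard error 0.047, adjusted p = 0.00615, limma), whereas Pla2g6 and Pla2g12a were lower, with log2 differences of -0.83 and -0.76. On the scanner arrays Pla2g4a read 2.11 and 2.51 under the label EV-50 and 2.05 and 3.21 under the label shGR-19, so that, as for Ptgs2, the arrays labelled shGR-19 were the highest and the lowest.

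Of the 5 other synthases tested, 3 were called in the value table. Cbr2, a carbonyl reductase of prostaglandins, was 2.84-fold lower in shGR-19, with a log2 difference of -1.51 (standard error 0.051, adjusted p = 0.00263, limma). It read 4.61 and 6.04 on the EV-50-labelled scanner arrays and 4.63 and 4.34 on the shGR-19-labelled ones, and the arrays labelled replicate 1 differed by 0.023. Akr1b3, an aldose reductase that can make prostaglandin F2-alpha, was lower, with a log2 difference of -0.79, and Cbr1, another carbonyl reductase, was 0.78 higher. Ptges3, the cytosolic prostaglandin E synthase that is also a co-chaperone of GR, was not called at 0.21 (standard error 0.078, adjusted p = 0.123, limma).

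Of the 6 genes of transport and breakdown tested, the 2 called in the value table were higher in shGR-19. Slco2a1, the prostaglandin transporter, was 0.68 higher, and Ptgr1, a prostaglandin reductase, was 0.63 higher. None of the 3 other prostanoid receptors tested (Ptgdr2, Ptgir and Tbxa2r) was called, nor was Ptgfrn, the protein that associates with the prostaglandin F receptor. In the leukotriene branch 1 of 8 was called: Cysltr1, a receptor of cysteinyl leukotrienes, was 2.12-fold lower, with a log2 difference of -1.08. Alox5ap, which presents arachidonic acid to the lipoxygenase, had a log2 difference of -1.15 that narrowly missed the threshold (adjusted p = 0.0101, limma).

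**Figure D5:**
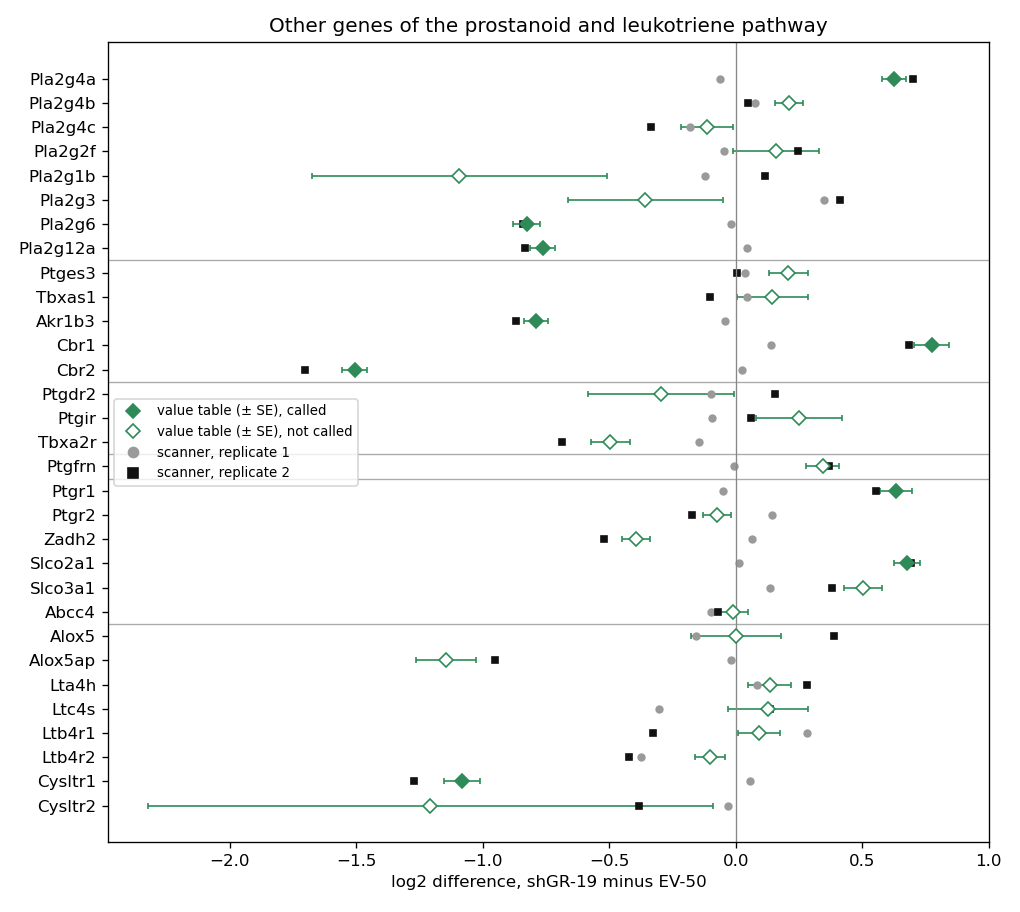
The 31 other pathway genes with a tested probe are in rows by role, from phospholipases at the top to the leukotriene branch at the bottom. The horizontal axis is the log2 difference of shGR-19 minus EV-50 in the value table (diamonds with the standard error, filled where called) and between the scanner arrays labelled replicate 1 (circles) and replicate 2 (squares). For the 9 called genes the circles lie between -0.061 and 0.14, whereas the squares lie between -1.70 and 0.70.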

How the data were processed

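The authors labelled, hybridized and scanned the 4 arrays, and per the submitters' processing notes read them with Agilent Feature Extraction 10.5.1.1. The deposited scanner files hold, for each spot, the background-subtracted intensity. The deposited value table holds log2 values under the same sample labels that the authors made in GeneSpring; each probe is centred on its median, columns were matched to samples by name, and which scaling GeneSpring applied is not given in the sources used here. From the scanner files, control and outlier spots were left out, spots of 1 probe were averaged, and log2 of the intensity was taken minus that of the 75th percentile of the array. A probe counted as detected on an array if at least 0.5 of its spots were well above background there, and was tested if detected by both arrays of 1 line or of both, which left 24439 probes. shGR-19 was set against EV-50 with lmFit and eBayes (limma 3.58.1, R 4.3.3), with Benjamini-Hochberg adjustment over all tested probes, and called at an adjusted p below 0.01. The value table was fitted in the same way on the same probes. The p of 0.01 is that of the study's methods, which name no adjustment; their limit of more than 2-fold was not required for a call, and counts that add it say so.

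No outlier mark fell on a probe of these genes except 1 spot of Ptgs2, and no spot was saturated. No exact permutation test was run, since with 2 arrays a line the smallest p it allows is 0.333. All probes of the 10 genes were reported, by the brightest tested probe of a gene or, where none was tested, the brightest, with other probes where they added a value. Other pathway genes called in the table were named, and the 3 genes closest to Ptgs2. These members, lists and tests were chosen with earlier results of these data known. Probe positions are those of mm9 in the files. The steps were tested on simulated data with 200 changed probes. Of 100 probes changed by a log2 difference of 2, 0 were recovered with the scanner spread and 42 with that of the value table. Of 100 changed by 1, 0 were recovered with either. The value table itself had 2828 called probes, many more than were changed in the simulation, which makes the adjustment less strict there. The recovered counts therefore do not carry over to calls in the table. Alternatives were normexp background correction, quantile normalization, re-centred columns, all probes, probes detected by all 4 arrays, an intensity trend, a plain equal-variance test, leaving out each array, the replicate number as a block, an adjusted p below 0.05 and the mean of a gene's probes.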

Additional observations from a re-analysis of the deposited data

How the results depend on the processing

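From the scanner arrays 0 member genes were called under every alternative run on them, and 2 when the value table took their place. The value table gave 2 called genes, 0 with all probes tested, 0 with a plain equal-variance test, 0 to 0 with any 1 column left out, 5 with an intensity trend and 4 at an adjusted p below 0.05. The labels do not pair the replicate numbers, and deviations of same-numbered arrays correlated at 0.652 on the scanner arrays and 0.109 in the value table over 21173 probes; with the replicate number as a block, 0 genes were called from the table. Where leaving out an array left 1 in a line, that array was taken to have the spread of the other line. The scanner log2 differences then ran from -0.79 to 0.71 for Ptgs1, -0.28 to 1.02 for Ptgs2, -1.11 to 0.89 for Ptges, -0.080 to 0.31 for Ptges2, -2.16 to 1.53 for Ptgds and -0.61 to 0.45 for Ptger1, so that all 6 changed sign. In the table Ptger1 ran from -0.27 to 0.11, and the other 5 genes kept their sign. Ptgds, outside the threshold in the table, was inside it with columns re-centred (adjusted p = 0.00956), with probes detected by all 4 arrays (0.00492) and with an intensity trend (0.000495), all from limma. Ptger1 has no value where all 4 arrays had to be above background. The causes were not tested. The number of arrays limits the precision, and signal over background limits Ptgis and 3 of the 4 receptors.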
